A study of Mus musculus with 6 samples.

Results

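Carbonic anhydrases are zinc enzymes that interconvert carbon dioxide and water with bicarbonate and a proton. The 6 genes described here are Car1, Car2, Car3, Car5a, Car8 and Car14, taken by name from the 55471 genes of the liver count tables. The list was chosen by library-scaled counts of these same livers, 4 h against 16 h, with that comparison already known. So the fasting changes of these 6 genes are given as descriptions without a test. The family has 10 further genes in the tables, and those are reported beside the 6.

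Liver RNA came from male C57BL/6J mice, a common inbred strain, of wild-type genotype in both groups. One group of 3 mice had fasted for 4 h and the other group of 3 for 16 h, with 1 library per mouse. The mice's age is not given in the sources used here, and no fed group was analysed here, so both groups are fasted animals. The study behind the series concerns cholesterol transport in liver cells that does not use vesicles.

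The members differ in where they work and how well. Car1, Car2 and Car3 are cytosolic, Car5a sits in the mitochondrial matrix, and Car14 is anchored in the plasma membrane with its catalytic domain outside the cell. Car2 is one of the fastest enzymes known, whereas Car3 is a slow one that is very abundant in male rodent liver, skeletal muscle and fat. Car5a is known for supplying bicarbonate inside mitochondria to pyruvate carboxylase and to the first enzyme of the urea cycle. Car8 is a carbonic anhydrase-related protein without that activity, known for binding the inositol trisphosphate receptor. Car1 and Car2 are also the main carbonic anhydrases of red blood cells.

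Part of these differences can be read in the coding sequence, which is shown because it sets the members apart as enzymes, Car3 and Car5a among them. Histidines hold the zinc ion, and CAT and CAC are the codons for histidine. The stretches below, 39 bases each on GRCm38 from the GENCODE M21 principal transcripts, cover 2 of the zinc-binding positions in 5 of the members, whose codons are in capitals.
Car1 at chr3:14776266-14776304, minus strand, exon 4: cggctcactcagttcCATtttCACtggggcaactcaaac
Car2 at chr3:14895054-14895092, plus strand, exon 3: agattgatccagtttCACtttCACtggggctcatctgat
Car3 at chr3:14866835-14866873, plus strand, exon 3: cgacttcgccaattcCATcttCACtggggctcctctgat
Car5a at chr8:121927131-121927169, minus strand, exon 3: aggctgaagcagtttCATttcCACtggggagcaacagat
Car14 at chr3:95900294-95900332, minus strand, exon 4: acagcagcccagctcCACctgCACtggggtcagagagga

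A second position affects the speed of the reaction in textbook accounts, because a histidine there shuttles protons out of the active site. Its codon is in capitals in the 39 bases around it.
Car1 at chr3:14777751-14777789, minus strand, exon 3: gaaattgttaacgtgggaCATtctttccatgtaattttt
Car2 at chr3:14887971-14888009, plus strand, exon 2: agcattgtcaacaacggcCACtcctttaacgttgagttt
Car3 at chr3:14864387-14864425, plus strand, exon 2: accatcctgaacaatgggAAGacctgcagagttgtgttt
Car5a at chr8:121939657-121939695, minus strand, exon 2: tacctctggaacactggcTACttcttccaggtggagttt
Car8 at chr4:8237932-8237970, minus strand, exon 2: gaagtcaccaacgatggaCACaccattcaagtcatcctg
Car14 at chr3:95900372-95901117, minus strand, across the junction of exons 3 and 4: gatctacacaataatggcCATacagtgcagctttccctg
The marked codon read AAG in Car3 and TAC in Car5a, the pair contrasted below, and was CAT or CAC in Car1, Car2, Car8 and Car14. Car8 lacks the activity, so this codon alone does not rank the members as enzymes. Over aligned codons, Car3 shared 54.9% of coding bases with Car5a, 63.5% with Car2 and 62.5% with Car1. Identity between any pair of members ran from 45.0% for Car5a and Car14 to 63.5% for Car2 and Car3. Car1, Car2 and Car3 lie close together on chromosome 3, at 14766216 to 14808368, 14886273 to 14900770 and 14863512 to 14872523.

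The libraries held 15173653 to 26572532 counts assigned to genes. Replicate 3 of the 4 h fast stood apart: its lung markers summed to 244 CPM (library-scaled counts, with TMM factors) against 35.2 to 50.1 CPM in the other 5 libraries, with Scgb1a1, a secretory protein of airway cells, at 95.05 CPM. The hepatocyte marker Alb was at 54516 to 68167 CPM in all libraries. Among all 13812 genes with enough counts to be tested, 18.7% passed an adjusted p of 0.05 in either direction with edgeR's quasi-likelihood test. The median log2 fold change of all tested genes was -0.03. Fold changes below are 16 h relative to 4 h, with the SE from that fit to 3 libraries per group. In whole liver, fewer cells of a type and less RNA per cell cannot be told apart.

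Car3 was by far the most abundant carbonic anhydrase after 4 h and was much lower after 16 h. Its libraries held 88070, 57315 and 63207 counts in replicates 1, 2 and 3 of the 4 h fast and 8146, 3006 and 9494 counts in those of the 16 h fast. Scaled to library size these were 3240, 3693 and 3301 CPM after 4 h and 362, 181 and 391 CPM after 16 h. The groups were far apart, and the lowest value was that of 16 h replicate 2. Mean levels were 3411 ± 246 CPM and 311 ± 114 CPM (SD, n = 3), an 11.0-fold difference and a log2 fold change of -3.45 ± 0.27. When single libraries were left out the log2 fold change ran from -3.65 to -3.18, the smaller size coming without 16 h replicate 2.

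In the ranking of all genes by CPM, Car3 stood at places 34, 31 and 35 after 4 h and at 338, 771 and 323 after 16 h. It took 0.331%, 0.378% and 0.321% of all gene counts in the 4 h libraries and 0.0373%, 0.0177% and 0.0380% in the 16 h libraries. The difference of 3100 CPM between the group means was the seventh largest loss of any gene. Car3 is also a major transcript of muscle and fat, so markers of those tissues were measured. The 10 skeletal muscle markers together reached 1.29 to 5.78 CPM after 4 h and 1.08 to 4.27 CPM after 16 h, with Mylpf the most abundant over all libraries, at most 1.47 CPM, Myh4 at most 1.69 CPM, and Tnnc2 at 0. Adipoq, which marks fat cells, was at most 0.129 CPM and Lep was at 0 in all libraries. The 8 adipocyte markers summed to 432 to 552 CPM and 420 to 437 CPM, nearly all of it Adipor2, a receptor that liver also expresses. Of the 4 adipocyte markers with enough counts 1 rose and 1 fell, where 9.18% of all tested genes rose and 9.51% fell. Cidec, a lipid droplet protein that liver also makes, rose from 8.93 to 25.6 CPM on average (1.505 ± 0.222, edgeR adjusted p = 0.00141). Cfd, or adipsin, which fat cells secrete, measured 5.37, 0.902 and 2.04 CPM after 4 h and 0.578, 0.241 and 0.494 CPM after 16 h. It fell (-2.66 ± 0.64, edgeR adjusted p = 0.0201), and that call held in 2 of 6 fits lacking 1 library. The part of the adipocyte markers in the level of Car3 was not tested.

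**Figure D1:**
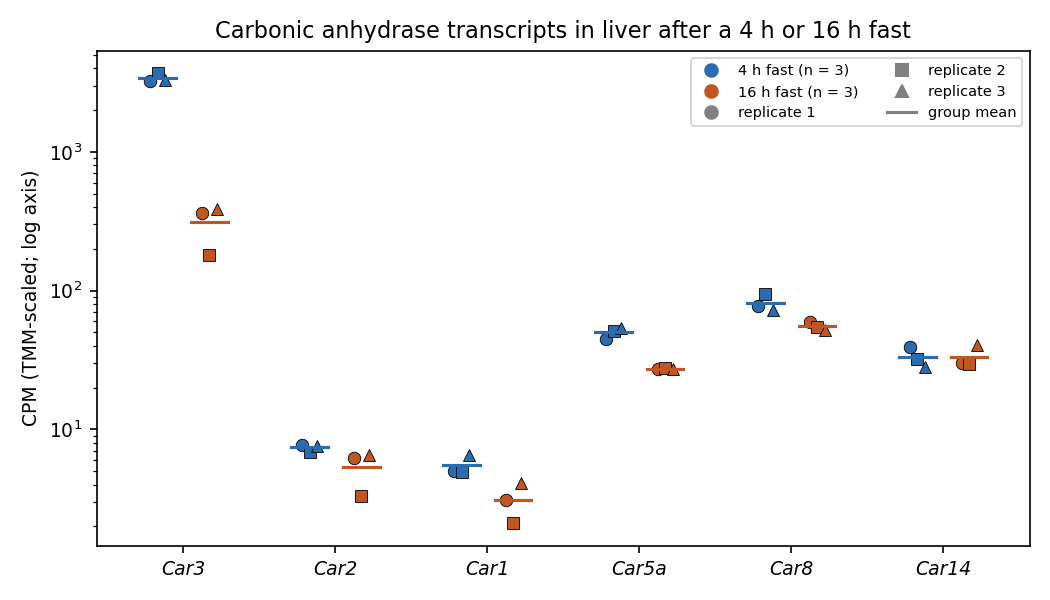
CPM of the 6 members in each library on a log axis, with 4 h libraries in blue, 16 h libraries in orange, a marker shape per replicate and a bar at the group mean (n = 3). Car3 spans 3240 to 3693 CPM after 4 h and 181 to 391 CPM after 16 h, while the Car14 groups overlap.

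Car2, the fast cytosolic enzyme, was present at a low level. It measured 7.76, 6.90 and 7.57 CPM after 4 h, from 107 to 211 counts a library. After 16 h it measured 6.23, 3.31 and 6.59 CPM, from 55 to 160 counts. The groups did not overlap, but replicates 1 and 3 of the 16 h fast were close to the 4 h libraries and only replicate 2 was far below. The log2 fold change was -0.45 ± 0.23, with a 95% interval from -0.94 to 0.05, and -0.21 without 16 h replicate 2.

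Car1, the other cytosolic form, was lower after the longer fast. It measured 5.003, 4.90 and 6.58 CPM after 4 h, and 3.11, 2.11 and 4.08 CPM after 16 h, from 35 to 136 counts a library over both groups. Every 16 h library lay below every 4 h library, with 4 h replicate 3 the highest and 16 h replicate 2 the lowest. The log2 fold change was -0.81 ± 0.24, and ran from -1.05 to -0.61 over fits lacking 1 library. Without 4 h replicate 3, the library with lung transcripts, it was -0.64.

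Because Car1 and Car2 are also red cell enzymes, 9 erythroid markers were set beside them. Their summed level was 148 to 176 CPM after 4 h and 53.5 to 99.4 CPM after 16 h, so it was lower in the same group as Car1. Of 5 tested markers 1 fell and none rose, where 9.51% of all tested genes fell and 9.18% rose. The largest part of the sum was Alas2, the erythroid form of the first heme synthesis enzyme. Alas2 fell from 99.2 ± 4.2 to 46.7 ± 4.3 CPM (log2 fold change -1.09 ± 0.11, edgeR adjusted p = 7.37e-05). Alas2 shares 15.5% of its exon bases with other genes. Epb42, a protein of the red cell membrane skeleton, was at 0 in all libraries. The 4 globins Hba-a1, Hba-a2, Hbb-bs and Hbb-bt averaged 0.570 to 0.574 times their 4 h level after 16 h, close to Car1, which was at 56.4% of its own, and none of them passed the edgeR test. Hbb-bs, the most abundant globin, measured 38.4, 26.3 and 26.3 CPM after 4 h and 5.12, 27.1 and 19.9 CPM after 16 h. Its 16 h libraries were widely spread, and the lowest was replicate 1, whereas Car1 was lowest in replicate 2.

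All 3 cytosolic members were lowest in 16 h replicate 2. The same library had the lowest summed level of 8 stellate cell markers, at 198 CPM against 258 to 353 CPM in the other 5 libraries. Of these 8 markers 2 fell with fasting, where 9.51% of all tested genes fell. That library was also lowest in the summed endothelial markers (110 against 114 to 144 CPM) and skeletal muscle markers (1.08 against 1.29 to 5.78 CPM). Every other marker list was lowest in another library. The part of the stellate, endothelial, muscle and erythroid markers in the values of Car1, Car2 and Car3 was not tested. Cholangiocytes are another cell type with carbonic anhydrase, and their 8 markers summed to 42.7 to 58.7 CPM after 4 h and 38.5 to 46.4 CPM after 16 h, most of it Spp1. None of the 7 tested cholangiocyte markers passed the test, where 18.7% of all tested genes did.

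Car5a, the mitochondrial enzyme on chromosome 8 at 121916126 to 121944904, was lower after 16 h by less than Car3. It measured 45.0, 51.2 and 54.2 CPM after 4 h, and 27.3, 27.5 and 27.2 CPM after 16 h. The groups were well apart, and the 16 h livers were nearly identical to each other. The mean went from 50.1 ± 4.7 to 27.3 ± 0.2 CPM, to 54.5% of the 4 h level, with a log2 fold change of -0.87 ± 0.11. Leaving out single libraries moved this only between -0.93 and -0.80. Of its exon bases, 23.5% lie under BC048644, a non-coding gene on the opposite strand at the 3′ end, and reads there may be lost or shared. BC048644 itself fell from 12.6 ± 1.4 to 7.35 ± 1.38 CPM (-0.78 ± 0.17, edgeR adjusted p = 0.00812).

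The ratio of Car3 to Car5a within a library does not depend on library scaling. Per kilobase of exon, Car3 exceeded Car5a 33.7-fold, 33.7-fold and 28.5-fold in the 4 h libraries and 6.20-fold, 3.07-fold and 6.72-fold in the 16 h libraries. The ratio was thus higher in every 4 h library than in any 16 h library, at 31.9 ± 3.0 and 5.33 ± 1.97 (SD, n = 3). Its size depends on the exon length assigned to each gene. With the lengths of the principal transcripts, 1679 bases for Car3 and 1249 for Car5a, the means were 50.8 and 8.49. Car3 remained the more abundant transcript in all 6 livers, so the difference narrowed without changing order.

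**Figure D2:**
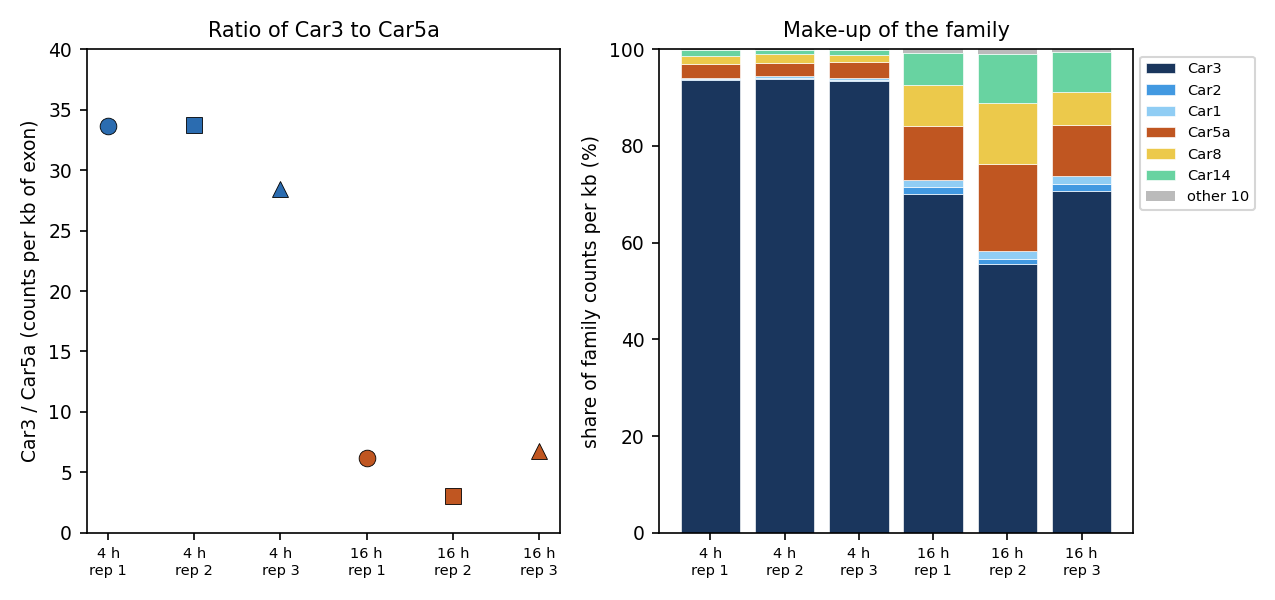
Left, the ratio of Car3 to Car5a counts per kilobase of exon in each library. Right, the percentage of the family's counts per kilobase that came from each member, where Car3 holds 93.4% to 93.9% after 4 h and 55.5% to 70.7% after 16 h.

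Car8, the related protein without carbonic anhydrase activity, was also lower after 16 h. Its gene is on chromosome 4 at 8143362 to 8239041. It measured 78.1, 94.6 and 72.3 CPM after 4 h, and 59.3, 55.1 and 52.0 CPM after 16 h. No 16 h library reached the lowest 4 h library. The log2 fold change was -0.56 ± 0.12, and from -0.62 to -0.42 over fits that left out a library, the smallest size without 4 h replicate 2.

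Car14, the membrane-anchored enzyme on chromosome 3 at 95897768 to 95904691, was level between the groups. It measured 39.0, 32.1 and 28.0 CPM after 4 h and 30.1, 29.7 and 40.4 CPM after 16 h, with the groups overlapping throughout. Its log2 fold change was 0.01 ± 0.15, and the 95% interval from -0.32 to 0.35 leaves out a doubling or a halving. The sign depended on the libraries used, with values from -0.14 to 0.17 over fits lacking 1 library. Of its exon bases 17.5% lie under Aph1a on the opposite strand, which rose from 42.5 ± 1.8 to 55.5 ± 4.5 CPM (0.38 ± 0.10, edgeR adjusted p = 0.0254).

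Of the 6 members, 5 had all 16 h libraries below all 4 h libraries, a pattern held by 19.7% of all tested genes. Car1, Car3, Car5a and Car8, 4 of the 6, lay past the threshold of the edgeR fit on the lower side, where 9.51% of tested genes lay. Car2 and Car14 did not reach it, and no member lay past it on the higher side. Since the members were chosen with this comparison known, these counts and their changes without single libraries are descriptions, and nothing is read from them. Car1 was no longer past the threshold without 4 h replicate 1 or 3 or 16 h replicate 1 or 2, nor Car8 without 16 h replicate 3.

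Levels per kilobase of exon, the scale on which genes can be compared, put Car3 first after 4 h, at 1191 ± 86 CPM per kilobase. Car5a followed at 37.4 ± 3.5, then Car8 at 21.2 ± 3.0, Car14 at 13.0 ± 2.2, Car1 at 4.40 ± 0.76 and Car2 at 3.06 ± 0.19 CPM per kilobase. With these lengths no neighbours in this order overlapped after 4 h. The order of the means was the same after 16 h on this scale, with Car3 at 109 ± 40, Car5a at 20.4 ± 0.1, Car8 at 14.4 ± 1.0, Car14 at 13.1 ± 2.4, Car1 at 2.48 ± 0.79 and Car2 at 2.22 ± 0.74 CPM per kilobase. By then the libraries of Car8 overlapped with those of Car14, as did those of Car1 with those of Car2. The lower ranks depend on the length used. Per kilobase of the principal transcript, Car14 was at 19.3 ± 3.2 and Car8 at 21.2 ± 3.0 after 4 h, with overlapping libraries, and Car14 at 19.5 ± 3.5 stood above Car8 at 14.4 ± 1.0 after 16 h. On that scale Car1 and Car2 overlapped in both groups, and Car2 had the higher mean after 16 h, at 3.01 ± 1.004 against 2.60 ± 0.82. By their means Car3 was first and Car5a next in both groups with either length, though by transcript length the 16 h libraries of Car5a (21.8 to 22.0) overlapped with those of Car14 (17.4 to 23.6).

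Summed over all 16 family genes, the level per kilobase was 1272 ± 89 after 4 h and 163 ± 43 after 16 h. Leaving Car3 aside it was 81.0 ± 3.1 and 53.8 ± 3.0 CPM per kilobase. Car5a made up 43.1% to 49.9% of that remainder after 4 h and 35.8% to 40.6% after 16 h. Car14 made up 13.6% to 19.7% and 21.9% to 28.0%, so the share of the membrane form was higher in each 16 h library. Among the 6 members alone, with principal transcript lengths, Car3 made up 95.7% to 96.0% after 4 h and 65.3% to 78.0% after 16 h. Car14 then made up 18.6% to 26.0% and 28.9% to 35.8% of the members without Car3.

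The other carbonic anhydrases were scarce. Of these 10 genes, 3 had enough counts to be tested. Of those, 1 fell, none rose and 2 did not pass, where 9.51% of all tested genes fell and 9.18% rose. Car5b, the second mitochondrial enzyme, on X at 163976822 to 164027997, measured 3.13, 3.61 and 3.97 CPM after 4 h and 1.91, 1.99 and 2.22 CPM after 16 h. It fell from 3.57 ± 0.42 to 2.04 ± 0.16 CPM (-0.80 ± 0.21, edgeR adjusted p = 0.0247). That call held in only 1 of the 6 fits that left out a library, the one without 4 h replicate 1, and the edgeR adjusted p reached 0.0877 without 16 h replicate 1.

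Car7, a cytosolic enzyme known mainly from brain, averaged 1.32 ± 0.22 CPM after 4 h and 0.644 ± 0.190 CPM after 16 h, and its difference missed the threshold (-1.01 ± 0.35, edgeR adjusted p = 0.0677). Car11, another related protein without activity, averaged 1.03 ± 0.15 and 0.802 ± 0.195 CPM, which missed it too (-0.35 ± 0.34, edgeR adjusted p = 0.504). Car13, a cytosolic neighbour of Car1, had 2 to 15 counts a library, Car9 had 1 to 4 and Car15 had 0 to 5, with 65.7% of the exon bases of Car15 under another gene. Car6, the secreted form, had 1 count in all. Car10 and Car12 had 0 of the 125286659 counts of the series, which allows up to 0.0239 CPM for each. Car4, a membrane enzyme abundant in lung capillaries, had 18 counts in 4 h replicate 3, the library with lung transcripts, and 0 in the other 5 libraries.

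**Figure D3:**
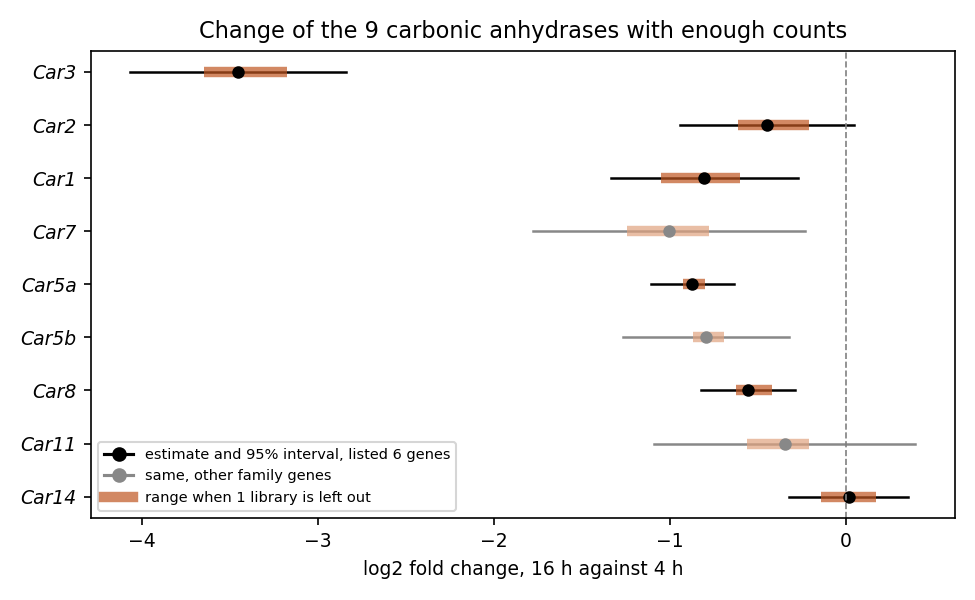
Log2 fold change of the 9 carbonic anhydrases with enough counts, 16 h against 4 h, with 95% intervals as thin lines and the range over fits that leave out 1 library as thick bars. Car3 lies at -3.45, Car14 at 0.01, and the other 7 between -1.01 and -0.35.

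Most enzymes that use bicarbonate did not pass the test. Of 11 genes for carboxylases and for the enzymes that attach or recycle their biotin, 2 rose, 1 fell and 8 did not pass, where 9.18% of all tested genes rose and 9.51% fell, with a median log2 fold change of -0.04 against -0.03 for all tested genes. Pcx is the mitochondrial pyruvate carboxylase that starts glucose synthesis from pyruvate. It measured 487, 421 and 420 CPM after 4 h and 752, 770 and 785 CPM after 16 h. It rose 1.74-fold (0.80 ± 0.11, edgeR adjusted p = 6.47e-04), with no overlap between the groups.

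Cps1, the mitochondrial carbamoyl phosphate synthetase that opens the urea cycle, measured 2984, 4119 and 2515 CPM after 4 h and 5142, 6007 and 6143 CPM after 16 h. It rose 1.80-fold (0.85 ± 0.17, edgeR adjusted p = 0.00573). Acaca, the cytosolic acetyl-CoA carboxylase of fatty acid synthesis, measured 94.1, 65.7 and 62.7 CPM and then 37.2, 39.8 and 38.2 CPM. It fell from 74.2 ± 17.3 to 38.4 ± 1.3 CPM (-0.95 ± 0.15, edgeR adjusted p = 0.00136). Pcx and Cps1, both mitochondrial enzymes to which Car5a is known to supply bicarbonate, were thus higher in the livers in which Car5a was lower. Pcca, Pccb, Mccc1 and Mccc2, also mitochondrial carboxylase genes of the list, did not pass with all libraries. Their log2 fold changes were 0.04, -0.04, -0.27 and -0.06. Without 4 h replicate 3 the list held 3 genes that rose and 3 that fell. In the whole table that fit had 1594 genes rising and 1393 falling, against 1268 and 1313 with all libraries.

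Among 15 bicarbonate transporters, 8 had enough counts, 1 rose, none fell and 7 did not pass (median -0.10), where 9.18% of all tested genes rose. The riser was Slc4a4, a sodium bicarbonate cotransporter of the plasma membrane, on chromosome 5. It measured 52.6, 54.3 and 38.0 CPM after 4 h and 147, 139 and 132 CPM after 16 h. The groups were far apart, and the rise was 2.88-fold (1.53 ± 0.14, edgeR adjusted p = 4.68e-05). Slc26a1, an exchanger of sulfate for bicarbonate and the most abundant gene of the list over all libraries, averaged 140 ± 15.3 CPM and 122 ± 1.9 CPM, a difference that missed the threshold (-0.21 ± 0.11, edgeR adjusted p = 0.215).

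Of 9 genes that export protons or lactate, 6 had enough counts, 2 rose, none fell and 4 did not pass (median 0.10). Of all tested genes 9.18% rose and 9.51% fell. Slc16a1, the monocarboxylate transporter MCT1, which moves lactate and ketone bodies together with a proton, rose from 48.8 ± 15.1 to 91.3 ± 7.4 CPM (0.90 ± 0.19, edgeR adjusted p = 0.00928). Its relative Slc16a7 rose from 48.3 ± 5.6 to 81.1 ± 4.3 CPM (0.75 ± 0.11, edgeR adjusted p = 0.00119). Bsg, a chaperone of MCT1, was the most abundant gene of the list. It averaged 332 ± 46.0 and 317 ± 15.8 CPM, a difference within the spread of the libraries (-0.06 ± 0.12, edgeR adjusted p = 0.749). Its difference turned to 0.06 without 4 h replicate 3, and 3 genes of the list rose without that library.

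**Figure D4:**
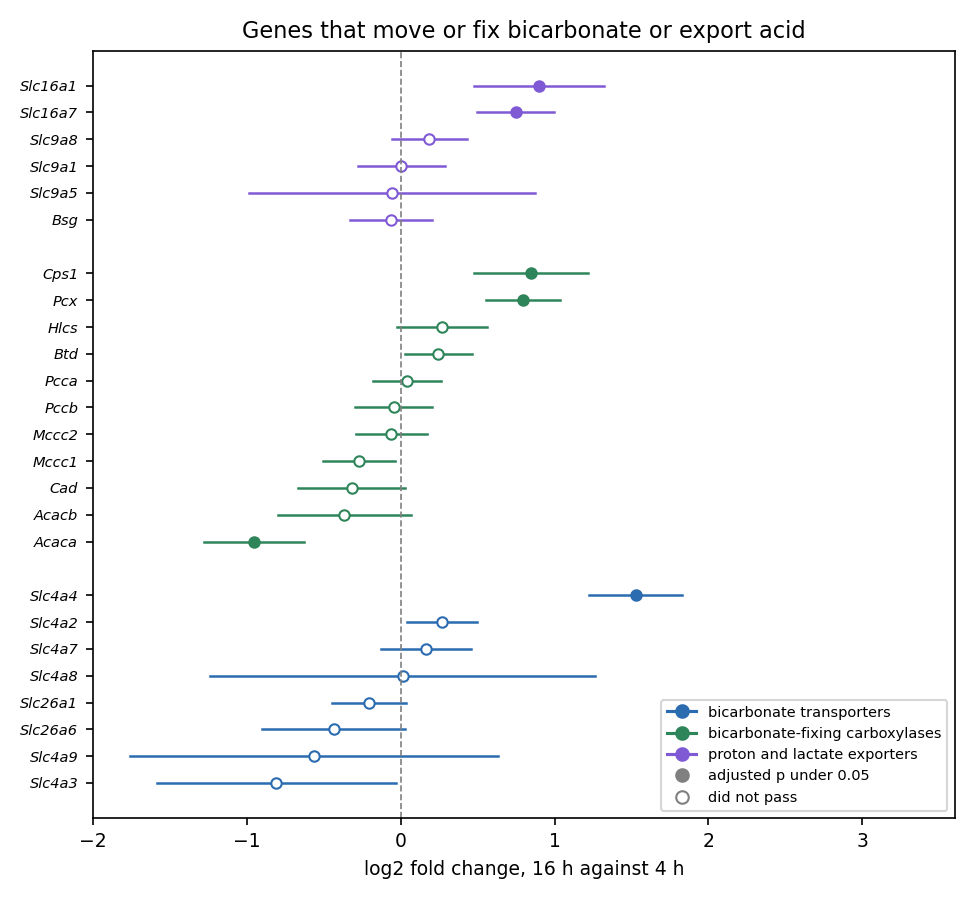
Log2 fold change with 95% interval, 16 h against 4 h, for the tested bicarbonate transporters (blue), carboxylases and their biotin enzymes (green) and proton and lactate exporters (purple). Filled points passed an edgeR adjusted p of 0.05: Slc4a4, Pcx, Cps1, Slc16a1 and Slc16a7 lie to the right of 0 and Acaca to the left.

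Hepatocytes of the lobule's centre and rim differ in many enzymes, so markers of both were set beside the members. The 10 pericentral markers summed to 8665 to 10149 CPM after 4 h and 12424 to 13651 CPM after 16 h, most of it Cyp2e1. The 10 periportal markers summed to 7279 to 9792 CPM and 11257 to 13306 CPM, with Ass1 and Pck1 the most abundant. Both sums were higher after 16 h, while Car1, Car2, Car3, Car5a and Car8 were lower. Most of the rise in each sum lay in 1 gene. With the longer fast, mean Cyp2e1 went from 5943.9 to 9586.5 CPM, and mean Pck1 from 3055 to 6265 CPM. So the sums do not show a rise of either zone's markers in general. Of all tested genes 9.18% rose and 9.51% fell. Within each list the tested genes split. Among 9 pericentral markers 3 rose and 2 fell, and among 10 periportal ones 3 rose and 3 fell. Part of these calls rested on single libraries: over fits lacking 1 library, 1 to 4 pericentral markers rose and 2 fell, and 2 to 3 periportal markers rose and 1 to 3 fell.

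The genes whose levels followed Car3 most closely over the 6 libraries, among 7490 protein-coding genes of at least 10 CPM, were Sqor, Galm, Klhdc8b, Srebf1 and Lpl, with Pearson correlations of 0.997, 0.997, 0.996, 0.996 and 0.994 of log2 CPM. They span changes of different sizes, from -0.49 ± 0.10 for Galm to -2.35 ± 0.16 for Srebf1. Closest to Car5a were Acsm1, Cyp4f14, Nudt7, Dhcr7 and Hmgn1, at 0.996 to 0.997. Among the members, Car3 correlated at 0.964 with Car5a, 0.899 with Car8, 0.891 with Car1, 0.766 with Car2 and 0.0477 with Car14. All these points share the same 6 libraries in 2 groups, so the difference between the groups sets most of each value.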

How the data were processed

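Liver RNA of 6 mice was sequenced, 3 per group. Per the series' design text and the submitters' processing notes, reads were trimmed with Trimmomatic, looked at with FastQC, aligned with STAR to GRCm38 (mm10) and counted per gene with HTSeq, and DESeq2 served for the authors' comparison. Not given in the sources used here: versions, annotation release, strand setting. What the authors deposited are raw counts per Ensembl gene, 1 table per library, not normalised by the authors. Summary lines that name no gene were left out of every total and fit: reads outside genes were 6.44% to 7.14% and ambiguous reads 5.78% to 6.59% of a library's tally. The category for multi-mapped reads was at 0.

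Symbols, positions and exon lengths came from GENCODE M21 (55144 of 55471 identifiers found), and coding sequences from its transcripts. Codons were matched across members through a MAFFT alignment; 1 stretch of Car8 is not reported here. Genes with enough counts by filterByExpr (13812, holding 99.9% of counts) entered a fit with edgeR 4.0.16 (R 4.3.3), with TMM factors, a robust quasi-likelihood fit with group as its only term, and 2-sided p-values adjusted by Benjamini-Hochberg over all tested genes. SE and intervals come from the same fit. The steps were tested on simulated data. CPM uses TMM-scaled library sizes, and log2 CPM a prior count of 2. A gene at 0 was taken to allow up to 3 counts, for counting error only.

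Members and gene lists were chosen with earlier results of these data known. Named were the 6 members, other family genes with counts, passing genes and the most abundant gene of each pathway list, the most abundant marker per list, and the 5 genes most alike to Car3 and to Car5a. Other markers were picked after their values were seen. Libraries of one group differed beyond sampling noise (chi-square per degree of freedom 19.0 to 76.1), so each counts as 1 replicate. The labels' design text gives 3 mice per group. Alternatives were DESeq2 1.42.0, upper-quartile factors, plain totals, no filter or a stricter one (1 CPM in 3 libraries), a replicate block and leaving out each library.

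Further marker lists were those of hepatocytes (7 genes), Kupffer cells and macrophages (summed level 102 to 176 CPM after 4 h and 97.2 to 117 CPM after 16 h), endothelium (114 to 137 and 110 to 144 CPM), neutrophils (2.65 to 16.2 and 2.49 to 6.03 CPM) and pancreatic acini (17.8 to 28.8 and 5.60 to 8.44 CPM). The most abundant of these were Alb, Clec4f, Stab2, Csf3r and Cela1, and Dcn among stellate markers and Hopx among lung markers. Of all tested genes 9.18% rose and 9.51% fell. Among 7 tested hepatocyte markers 2 rose and 1 fell. Among 8 tested Kupffer cell markers 1 fell, Timd4, a call that held in only 1 of the 6 fits lacking 1 library. Over those fits 0 to 1 Kupffer cell markers rose and 0 to 1 fell. The 1 tested acinar marker fell. No endothelial, neutrophil, lung or muscle marker passed with all libraries, though 0 to 1 endothelial markers rose over fits lacking 1 library.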

Additional observations from a re-analysis of the deposited data

How the results depend on the processing

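With DESeq2, other scalings, other filters and the replicate block, the log2 fold change ranged from -3.52 to -3.43 for Car3 and from -0.04 to 0.03 for Car14, whose sign is not settled. Without single libraries, 671 to 1594 genes rose and 696 to 1393 fell in the whole table. The Car3 to Car5a ratio averaged 68.4 and 11.4 after 4 h and 16 h without division by exon length, and 50.8 and 8.49 with principal transcript lengths, a choice made after seeing the data, as were the other values by transcript length and the marker counts without single libraries. Without the filter on low counts 2 of the other carbonic anhydrases fell, the added one being Car4, whose counts all come from 4 h replicate 3, and 2 carboxylases fell, the added one being Acacb. Leaving out single libraries gave 0 to 1 falls among the other carbonic anhydrases and 1 to 3 among carboxylases. The log2 fold change of Bsg ranged from -0.12 to 0.064 when single libraries were left out, the positive value coming without 4 h replicate 3. Same-numbered libraries deviated together only weakly (correlations 0.0877, 0.0933 and 0.0455), against -0.138 to 0.0662 for libraries of unlike number. The 0.0662 was that of 16 h replicate 3 with 4 h replicate 1. So few and weak correlations cannot settle whether the numbers pair the livers. With the replicate as a block, 1352 genes rose and 1396 fell, and every named gene of the pathway lists other than the members kept its side of the threshold. Car1, Car2 and the scarce family genes outside the members rest on at most 211 counts a library, which limits how small a change could be seen.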
